A study of Homo sapiens with 40 samples.

Results

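CD1A, CD1B, CD1C, CD1D and CD1E are the 5 CD1 genes of the human genome. They were found by symbol in the rows of 3 deposited tables of read counts, where all 5 were present among 62754 genes. The tables hold 40 libraries in 10 groups of 4, labelled as lines of T-cell acute lymphoblastic leukaemia (T-ALL), and the study asked what the RNA-binding protein QKI does in such cells. Jurkat cells, a T-ALL line, were transfected with a QKI siRNA or with the control siRNA that the labels call NTC. Cells labelled HPB-ALL were transduced by virus with a vector for a QKI shRNA or for the NTC shRNA. The untreated lines were HPB-ALL, DND-41, TALL-1, KARPAS-45, ALL-SIL and LOUCY, each an established T-ALL line. Medium held 20% serum for untreated HPB-ALL, for KARPAS-45 and for the knockdown cells labelled HPB-ALL. It held 10% serum for the other untreated lines and for Jurkat. Serum and line cannot be told apart. The RNA is described as total RNA for Jurkat and as polyadenylated RNA for all other groups.

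CD1 proteins resemble class I MHC molecules, pair with β2-microglobulin and hold lipids in place of peptides, which they show to T cells. CD1A, CD1B and CD1C present lipids, many of them mycobacterial, to diverse T cells; CD1D presents glycolipids to natural killer T (NKT) cells; CD1E stays inside the cell and helps to process and load lipids for the others. In the thymus they mark the cortical stage at which cells carry both CD4 and CD8, and surface CD1A is used in the clinic to name the cortical class of T-ALL, whereas outside the thymus they are found mainly on dendritic cells and B cells.

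The genes lie together on chromosome 1 (GRCh38, GENCODE 29). CD1D is at chr1:158179947-158184896, CD1A at chr1:158254137-158258269, CD1C at chr1:158289786-158293630 and CD1E at chr1:158353696-158357553, all on the plus strand, and CD1B is at chr1:158327951-158331531 on the minus strand. The cluster spans 177.6 kb and holds 3 other annotated genes. No GENCODE gene overlaps any of the 5. In RefSeq, CD1B spans chr1:158285405-158331531, and CD1C, at chr1:158289923-158294774, lies within that span on the opposite strand; the sources used here do not say if reads were counted by strand. The share of 50-base stretches of their exons also found in another gene was 3.66% for CD1B, 2.59% for CD1A, 1.61% for CD1E, 0.454% for CD1D and 0 for CD1C, and every such gene was another CD1 gene.

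Promoter windows of 250 bases before to 50 bases after a start site are shown because levels of the 5 genes tended to move together from library to library in several lines, as described further on. They are RefSeq sequences of GRCh38.p14, given 5′ to 3′ in lower case. Capitals mark AACTG on either strand (CAGTT on the strand shown), a core bound by MYB, a transcription factor of thymocytes and T-ALL; the letters were chosen after the sequences had been seen. CD1B has no entry and is named only.

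CD1A promoter, chr1:158254174-158254473, plus strand: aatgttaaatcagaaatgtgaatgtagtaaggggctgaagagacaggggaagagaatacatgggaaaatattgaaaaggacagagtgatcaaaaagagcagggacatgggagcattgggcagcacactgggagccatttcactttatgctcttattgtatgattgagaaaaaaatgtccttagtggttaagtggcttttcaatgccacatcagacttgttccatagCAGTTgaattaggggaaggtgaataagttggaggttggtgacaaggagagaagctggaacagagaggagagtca
CD1C promoter, chr1:158289673-158289972, plus strand: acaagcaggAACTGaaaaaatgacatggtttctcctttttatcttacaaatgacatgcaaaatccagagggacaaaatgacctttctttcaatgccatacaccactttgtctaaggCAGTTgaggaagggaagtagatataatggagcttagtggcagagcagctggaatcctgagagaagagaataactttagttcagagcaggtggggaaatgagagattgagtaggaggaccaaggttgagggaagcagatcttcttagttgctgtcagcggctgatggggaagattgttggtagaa
CD1D promoter, chr1:158179697-158179996, plus strand: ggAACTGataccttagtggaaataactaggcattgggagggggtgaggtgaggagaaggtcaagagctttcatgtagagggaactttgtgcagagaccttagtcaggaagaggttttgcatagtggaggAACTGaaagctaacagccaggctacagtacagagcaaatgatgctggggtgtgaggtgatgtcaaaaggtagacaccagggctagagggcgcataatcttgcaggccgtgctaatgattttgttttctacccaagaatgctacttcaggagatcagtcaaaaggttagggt
CD1D promoter, chr1:158180645-158180944, plus strand: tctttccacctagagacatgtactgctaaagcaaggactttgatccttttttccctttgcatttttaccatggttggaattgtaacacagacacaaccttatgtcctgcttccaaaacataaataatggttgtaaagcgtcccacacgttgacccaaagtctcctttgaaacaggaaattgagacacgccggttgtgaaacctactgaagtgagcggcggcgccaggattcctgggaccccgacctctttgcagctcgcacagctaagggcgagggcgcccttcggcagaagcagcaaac
CD1E promoter, chr1:158353644-158353943, plus strand: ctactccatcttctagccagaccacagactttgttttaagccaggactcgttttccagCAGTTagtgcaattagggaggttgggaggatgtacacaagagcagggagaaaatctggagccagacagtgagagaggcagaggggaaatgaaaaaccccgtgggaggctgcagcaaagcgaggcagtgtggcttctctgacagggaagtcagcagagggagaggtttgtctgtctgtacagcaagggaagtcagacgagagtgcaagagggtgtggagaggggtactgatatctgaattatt

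AACTG stood 24 bases before the start site of CD1A, 241 and 134 bases before that of CD1C, 192 bases before that of CD1E, and 248 and 121 bases before the first of the CD1D start sites. These start sites are those of RefSeq and differ from the GENCODE gene starts for CD1A, CD1C and CD1E. By GENCODE, the CD1A match, the CD1C match at 134 bases and the CD1E match lie within the gene. The second CD1D window, and a further CD1A window at chr1:158248086-158248385, held none. Of 35116 RefSeq promoters of the same length, 39.7% held AACTG, so matches in these windows are a description only. The letters TATAAA were in none of the windows and in 11.5% of all promoters.

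QKI binds RNA at short motifs that DNA letters write as ACTAAC or ACTAAT. In the longest coding transcript of each gene, these letters were found in CD1B only, with ACTAAC at base 1305 and ACTAAT at base 600 of a transcript of 1395 bases. Among 1033 genes with a transcript within 10% of that length, 9.49% held ACTAAC and 11.9% held ACTAAT. Both CD1B sites are shown in 30 bases from GENCODE 29, in lower case with the letters in capitals, since no other member held either.

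CD1B, coding sequence: gaaattctgtgcACTAATcatacaatatca
CD1B, after the stop codon: ttatgagactgtACTAACagtgtgattcac

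Total counts per library were 68379879 to 115723891 in Jurkat QKI siRNA and 103753086 to 134209287 in Jurkat NTC siRNA. They were 119783229 to 134916505 in the libraries labelled HPB-ALL with QKI shRNA and 81048583 to 127061690 with NTC shRNA, and 44093984 to 83952970 in the untreated lines. A floor of 3 counts is at most 0.0653 CPM (counts scaled to a common library size) in any library, so a gene at 0 lies below that level. QKI itself, the target, averaged 21.5 ± 4.22 CPM in Jurkat QKI siRNA against 148 ± 19.5 CPM in Jurkat NTC siRNA, and 55.8 ± 1.42 CPM against 104 ± 2.58 CPM in the libraries labelled HPB-ALL (SD, n = 4 each). The libraries labelled HPB-ALL went against their label. TLX3, the oncogene of HPB-ALL, had 0 counts in all 8 and 146 to 289 CPM in untreated HPB-ALL; CD3E, part of the T-cell receptor complex, reached at most 0.0151 CPM in the 8 and 773 to 1124 CPM in untreated HPB-ALL. ELANE, neutrophil elastase, was at 1678 to 1746 CPM with QKI shRNA and 1580 to 1716 CPM with NTC shRNA, and at most 0.107 CPM in untreated HPB-ALL. They are therefore called the libraries labelled HPB-ALL throughout.

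Among the untreated lines, HPB-ALL carried the highest mean level of each of the 5 CD1 genes and LOUCY carried almost none. DND-41 came close to HPB-ALL for CD1B and for no other member. TALL-1 and KARPAS-45 had mostly CD1A, and ALL-SIL was low throughout. In an F test over the 6 lines (edgeR quasi-likelihood, 24 libraries), all 5 genes differed, with adjusted p between 8.29e-22 (CD1B) and 4e-14 (CD1D); 98% of the 20348 genes tested did so too, so the count of 5 does not set them apart. Of 75 comparisons of a member between a pair of lines, 66 were called at an adjusted p of 0.05, against 65.2% of all gene-by-pair comparisons. These p-values measure the spread between the deposited libraries, which may be technical, since nothing says that the libraries of a line came from separate cultures. In such bulk samples, fewer cells expressing a gene and less RNA per cell cannot be told apart.

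**Figure D1:**
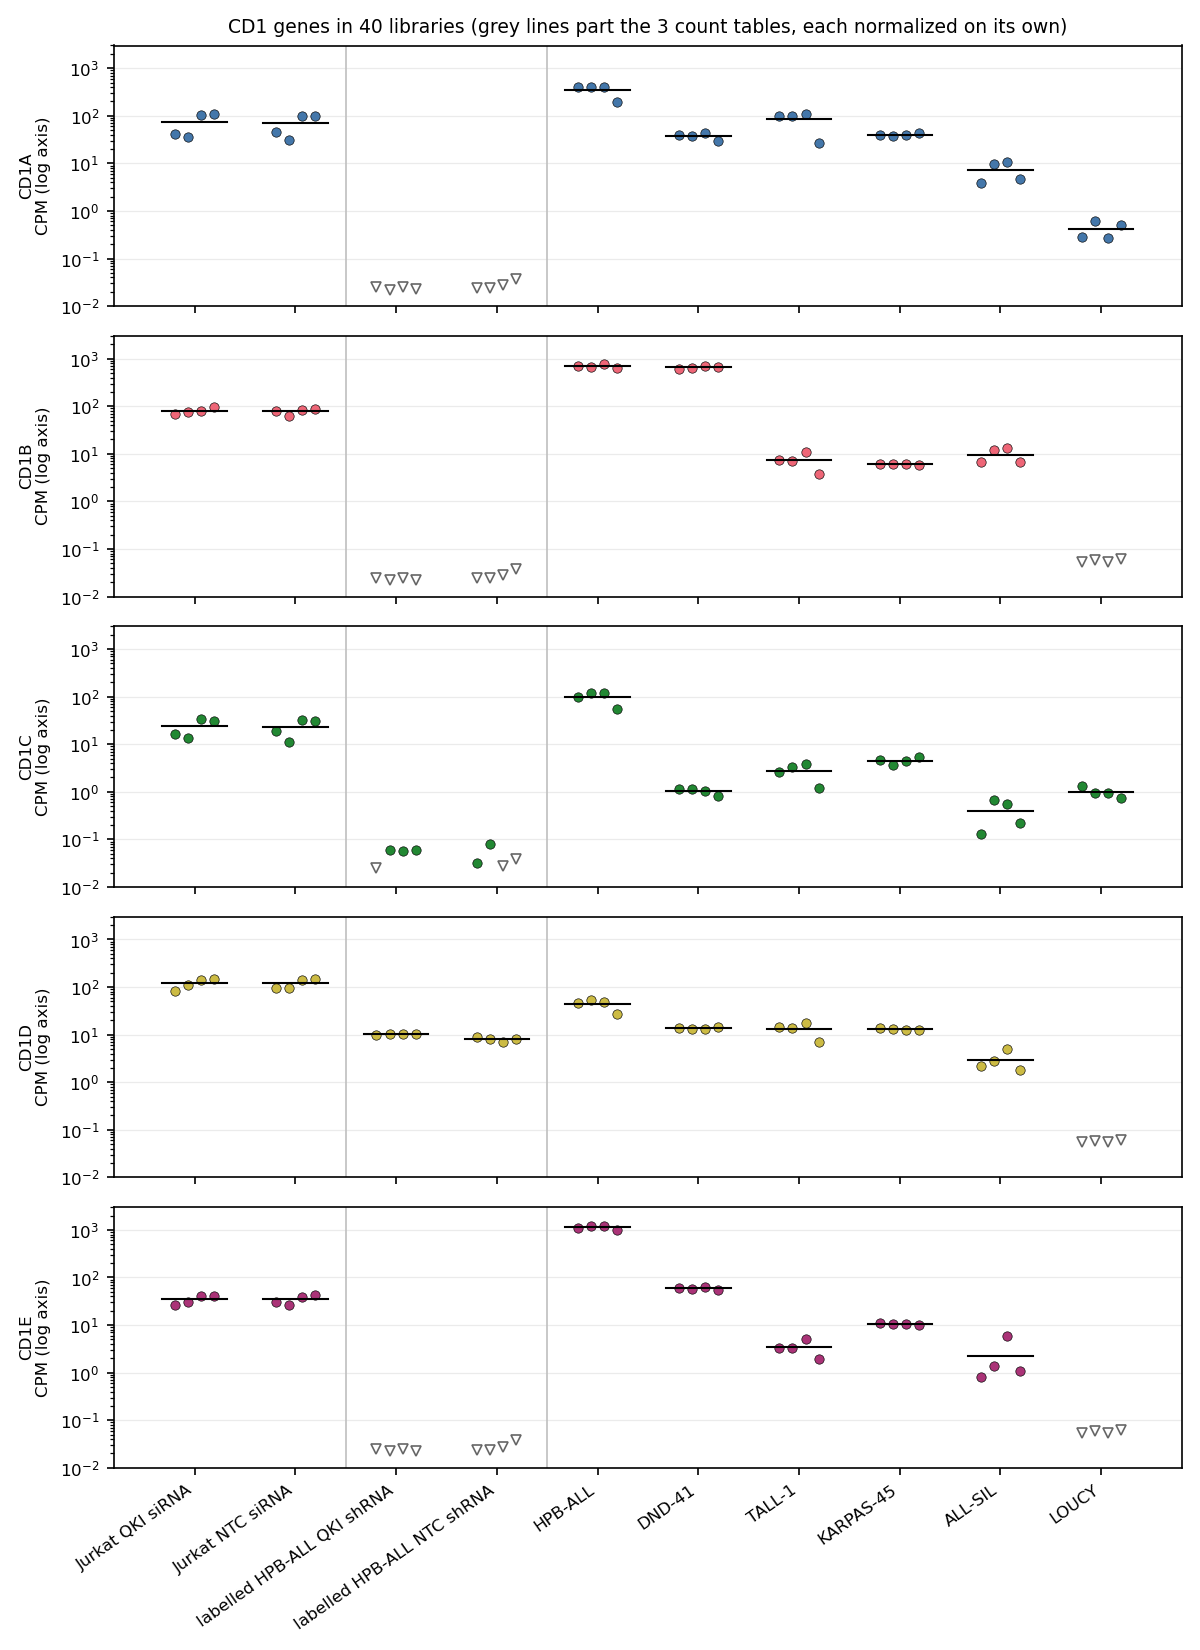
Level of each CD1 gene in all 40 libraries, in CPM on a log axis, with 1 panel a gene. Filled points are libraries with more than 3 counts, black bars are group means, and open triangles stand at the level of 3 counts for libraries with 3 counts or fewer; HPB-ALL has the highest mean of the 6 untreated lines in each panel, and the libraries labelled HPB-ALL show CD1D alone above 1 CPM.

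CD1A, the marker of cortical T-ALL and of Langerhans cells, was at 404, 406, 398 and 191 CPM in the 4 HPB-ALL libraries. TALL-1 followed with 101, 98.7, 109 and 26.5 CPM. In both lines 3 libraries lay close together and replicate 4 lay far below them. KARPAS-45 averaged 40.2 ± 2.54 CPM and DND-41 37.3 ± 5.45 CPM (SD, n = 4 each), a difference of 0.11 on the log2 scale with a 95% confidence interval of -0.57 to 0.78 and an adjusted p of 0.791. ALL-SIL had 3.85, 9.68, 10.5 and 4.72 CPM, below every library of those lines. LOUCY, at 0.271 to 0.604 CPM, was lower still, with 15 to 31 counts per library. Every neighbouring pair in this order but KARPAS-45 and DND-41 differed; the narrowest called gap was that of TALL-1 over KARPAS-45, 1.06 ± 0.33 (log2, SE; adjusted p = 0.00606).

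CD1B, which has the largest lipid groove of the family, split the lines in a different way. HPB-ALL had 706, 660, 772 and 630 CPM and DND-41 had 596, 633, 707 and 670 CPM, and the libraries of the lines overlapped (log2 difference 0.09, 95% confidence interval -0.35 to 0.53, adjusted p = 0.761). The other lines were far below: ALL-SIL averaged 9.54 ± 3.32 CPM, TALL-1 7.27 ± 2.87 CPM and KARPAS-45 6.04 ± 0.203 CPM (SD, n = 4 each). DND-41 exceeded ALL-SIL, the next line in the order, by 6.09 ± 0.27 (log2, SE; adjusted p = 7.13e-16). ALL-SIL exceeded KARPAS-45 (0.66 ± 0.22, adjusted p = 0.0104), whereas neither ALL-SIL and TALL-1 (adjusted p = 0.146) nor TALL-1 and KARPAS-45 (adjusted p = 0.29) differed beyond their spread. These calls rest on single libraries: without ALL-SIL replicate 3, ALL-SIL over KARPAS-45 was not called (adjusted p = 0.0601); without TALL-1 replicate 3, ALL-SIL over TALL-1 was (adjusted p = 0.0254), and without TALL-1 replicate 4 TALL-1 over KARPAS-45 was (adjusted p = 0.03). The 4 LOUCY libraries held 1 CD1B count in all.

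CD1C, also found on myeloid dendritic cells and some B cells, stood far higher in HPB-ALL than in any other untreated line. HPB-ALL had 99.4, 117, 122 and 55.2 CPM. KARPAS-45 averaged 4.49 ± 0.694 CPM, TALL-1 2.74 ± 1.12 CPM, DND-41 1.03 ± 0.162 CPM, LOUCY 0.979 ± 0.247 CPM and ALL-SIL 0.392 ± 0.258 CPM (SD, n = 4 each). HPB-ALL stood above KARPAS-45, the next line, by 4.45 ± 0.33 (log2, SE; adjusted p = 1.08e-11). KARPAS-45 exceeded TALL-1 by 0.71 ± 0.30 (adjusted p = 0.0403), a call that most omissions of a single library end, with an adjusted p of 0.148 without TALL-1 replicate 4. DND-41 and LOUCY did not differ beyond their spread (adjusted p = 0.902), and LOUCY exceeded ALL-SIL by 1.31 ± 0.39 (adjusted p = 0.00508). CD1C was thus the member on which LOUCY was not the lowest line, at 36 to 73 counts per library.

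CD1E, the member that stays within the cell, had the widest range. HPB-ALL libraries were at 1118, 1205, 1221 and 992 CPM, while DND-41 averaged 59.1 ± 4.04 CPM and KARPAS-45 10.5 ± 0.542 CPM (SD, n = 4 each). HPB-ALL exceeded DND-41 by 4.26 ± 0.40 (log2, SE; adjusted p = 5.96e-09), although the lines were alike in CD1B. TALL-1 had 3.37, 3.26, 5.04 and 1.98 CPM and ALL-SIL had 0.815, 1.37, 5.79 and 1.09 CPM, and these lines did not differ beyond their spread (0.58 ± 0.39, adjusted p = 0.226). A single ALL-SIL library, replicate 3, lay above every TALL-1 library, and without it TALL-1 exceeded ALL-SIL by 1.67 on the log2 scale (adjusted p = 3.27e-06). LOUCY had 0 counts in all 4 libraries, so that the HPB-ALL mean was at least 18500-fold higher than 3 counts in the shallowest LOUCY library.

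CD1D, the ligand of NKT cells, varied least among the lines that expressed it. HPB-ALL had 45.3, 53.3, 48.6 and 27.4 CPM. DND-41 at 13.7 ± 0.550 CPM, TALL-1 at 13.2 ± 4.52 CPM and KARPAS-45 at 13.0 ± 0.532 CPM (SD, n = 4 each) could not be ordered: none of the 3 pairs differed beyond its spread, with adjusted p of 0.824 to 0.956. ALL-SIL, at 2.99 ± 1.46 CPM, was below KARPAS-45 by 2.12 ± 0.28 (log2 of KARPAS-45 over ALL-SIL, SE; adjusted p = 6.19e-07). LOUCY again had 0 counts in all 4 libraries, at least 48.7-fold lower than ALL-SIL by the same floor.

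Per kilobase of exon, which allows the genes to be compared, the family was made up differently in each line. In HPB-ALL the sum of the 5 was 1266 CPM per kilobase, of which CD1E took 40.7% and CD1B 39.2%. DND-41 had a sum of 518 CPM per kilobase, and CD1B made up 90.1% of it. In TALL-1, with a sum of 54.4, and in KARPAS-45, with 37.2, CD1A led with 73.3% and 51.6% of the sum. ALL-SIL had a sum of 12.9 CPM per kilobase, 53.0% of it CD1B, and LOUCY 0.886, 77.0% of it CD1C. Jurkat showed the most even mixture, with CD1B at 32.1% and CD1D at 30.05% of 178 CPM per kilobase in QKI siRNA, against 32.3% and 30.3% of 174 CPM per kilobase in NTC siRNA. Jurkat was normalized apart from the lines, and its RNA is described as total RNA where theirs is polyadenylated. These levels are therefore set side by side and were not tested.

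**Figure D2:**
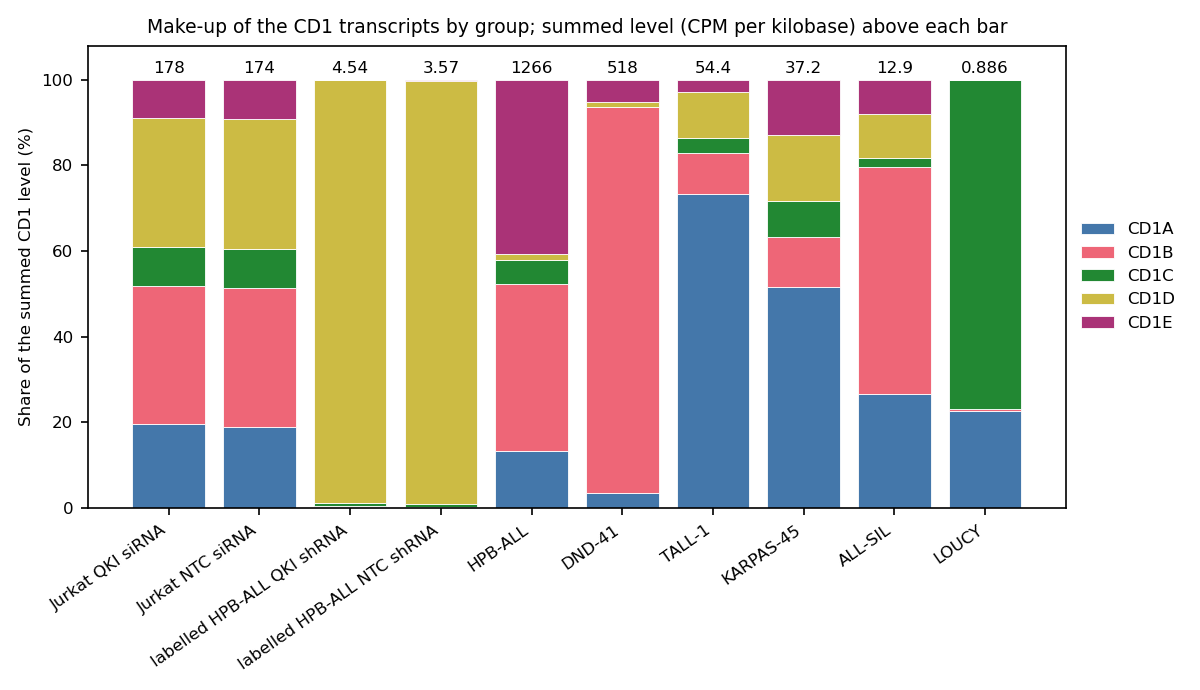
Share of each CD1 gene in the summed CD1 level per kilobase of exon (%), by group, from group means of 4 libraries. The number above each bar is the sum in CPM per kilobase; CD1B fills 90.1% of the DND-41 bar, CD1A leads in TALL-1 and KARPAS-45, and CD1D fills 98.8% of both bars labelled HPB-ALL.

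In TALL-1, HPB-ALL and ALL-SIL, levels of the 5 genes tended to move together from library to library. Deviations of log2(CPM + 0.5) from the line mean correlated between every pair of members, with Pearson's r of 0.55 (CD1C and CD1E) to 0.87 (CD1A and CD1D) over 24 libraries. This is a description: the libraries share lines, depth and normalization, and the correlation pools all 6 lines. In KARPAS-45 and DND-41 the members did not all move the same way. KARPAS-45 replicate 4 deviated by 0.12 for CD1A and 0.23 for CD1C but by -0.07 for CD1B and -0.09 for CD1E. DND-41 replicate 4 deviated by -0.30 for CD1A and -0.23 for CD1C but by 0.04 for CD1B and 0.06 for CD1D. LOUCY had no CD1D or CD1E counts that could vary. TALL-1 replicate 4 was the lowest TALL-1 library for all 5 genes, below the mean of the other 3 by 1.93 for CD1A, 1.11 for CD1C, 1.098 for CD1D, 1.06 for CD1B and 0.80 for CD1E on the log2 scale. Of 12377 genes at 1 CPM or more in TALL-1, 1.39% lay lower by 1 or more in that library and 2.3% higher. HPB-ALL replicate 4 was likewise lowest for all 5, by 1.08 for CD1A and 1.02 for CD1C but by 0.17 for CD1B; 5.07% of 13144 genes lay lower by 1 or more there, and 4.25% higher. In ALL-SIL, replicate 3 was highest for CD1A, CD1B, CD1D and CD1E, by 2.00 for CD1E. The total of TALL-1 replicate 4, 50141296 counts, was the lowest of its line, that of ALL-SIL replicate 3, 57886749 counts, the highest of its line, and that of HPB-ALL replicate 4, 47273446 counts, lay between those of the others. The part of depth in these shifts was not tested. KARPAS-45 libraries lay at most 0.36 from the mean of the other 3 for any member. The libraries numbered 4 also deviated together over all genes: in the 5 lines other than KARPAS-45 their deviations from the line means correlated in each of 10 pairs, with r of 0.20 to 0.51, against 0.02 to 0.10 in the 5 pairs with KARPAS-45. Those numbered 3 did so with r of 0.05 to 0.48 in 10 pairs without KARPAS-45, and numbers 1 and 2 had r of both signs. The part of this shared deviation in the CD1 levels was not tested. With the number 4 libraries of all lines left out, a fit added after these values were seen, 66 of 75 comparisons between lines were again called; KARPAS-45 over TALL-1 in CD1C was not among them (adjusted p = 0.138), and TALL-1 over KARPAS-45 in CD1B was (adjusted p = 0.0239).

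**Figure D3:**
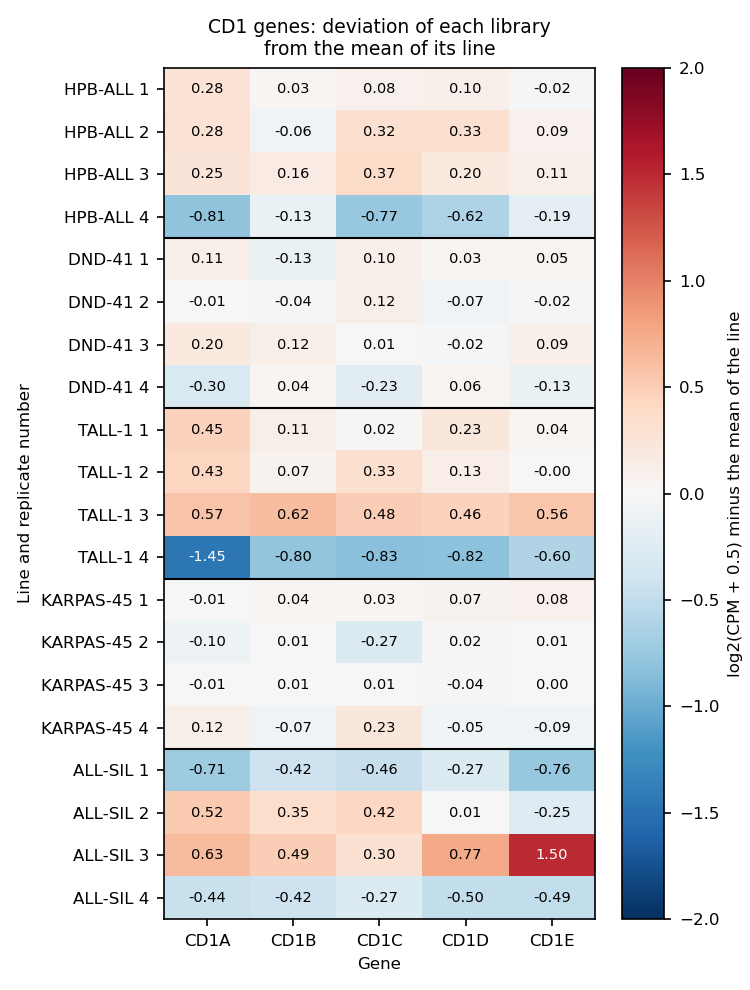
Deviation of each library from the mean of its line for each CD1 gene, in log2(CPM + 0.5), printed in each cell and coloured from blue (lower) to red (higher). LOUCY is left out because 3 members are at or near 0; replicate 4 of TALL-1 and of HPB-ALL is low for all 5 genes and replicate 3 of ALL-SIL is high.

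Other cortical thymocyte genes did not follow 1 order across the lines. Of 16 listed genes 15 could be tested, and all 15 differed between lines, against 98% of all genes tested. CD4 and CD8A, the co-receptors of cortical cells, were at 473 and 311 CPM in HPB-ALL and at 60.3 and 521 CPM in KARPAS-45, but at 4.15 and 1.87 CPM in DND-41. CD8B was at 625 CPM in KARPAS-45, 386 CPM in HPB-ALL and 1.15 CPM in DND-41. ELOVL4, an enzyme that lengthens very long fatty acids, was highest in KARPAS-45 with 283 CPM. RAG1, which cuts antigen receptor genes, was highest in DND-41 with 750 CPM, against 54.5 CPM in HPB-ALL and 0.0907 CPM in TALL-1, while DNTT, the polymerase that adds bases at the cuts, was highest in TALL-1 with 264 CPM. In LOUCY, RAG1 was at 2.64 CPM, CD4 at 0.490 CPM and CD8B at 0.00452 CPM. DND-41 thus had CD1B near the level of HPB-ALL, the highest RAG1 and little CD8B. RAG1 and DNTT were picked after their values were seen, the other genes by the size of their F test. CD99 was listed at or near 0 in every line. Its gene has a copy on each sex chromosome, and the part of this in the low counts was not tested.

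**Figure D4:**
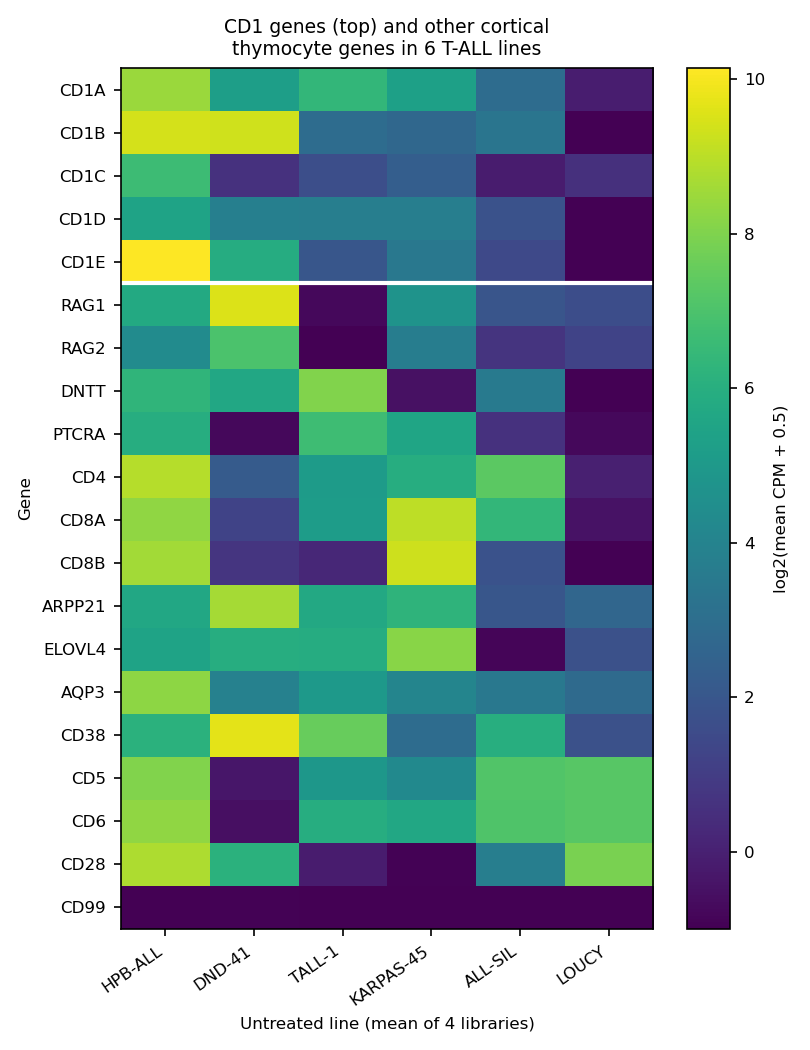
Mean level of the 5 CD1 genes (above the white line) and of 15 other cortical thymocyte genes in the 6 untreated lines, as log2(mean CPM + 0.5). HPB-ALL is high for most rows, DND-41 is high for CD1B, RAG1 and CD38 and low for CD8B, CD5 and CD6, and LOUCY is low for the CD1 genes and high for CD5, CD6 and CD28.

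Markers of other cell types that carry CD1 were set beside these levels. In HPB-ALL the 12 dendritic and myeloid markers summed to 16.2 to 35.3 CPM, most of it CST3, the protease inhibitor cystatin C, with a mean of 23.0 CPM. LAMP3, at 1.63 CPM, was the other of the 2 with a mean over 1 CPM; LYZ was at 0.112 CPM and CSF1R at 0.00468 CPM, and FCER1A, CD207 and CLEC9A, which define dendritic cells, were at 0. In LOUCY the dendritic and myeloid list summed to 74.8 to 105 CPM, with 7 of the 12 over 1 CPM. There CLEC9A was at 8.65 CPM and FCER1A at 4.14 CPM. The highest sum in a remaining line was 2.38 CPM, in KARPAS-45. The 7 B-cell markers summed to 194 to 422 CPM in HPB-ALL and 1165 to 2110 CPM in DND-41, and 3 of the 7 averaged over 1 CPM in each of these lines. LOUCY, with almost no CD1, had a B-cell sum of 316 to 427 CPM, also with 3 of the 7 over 1 CPM. The highest B-cell sum in a remaining line was 57.2 CPM, in ALL-SIL. CR2 averaged 277 CPM in HPB-ALL and 17.2 CPM in DND-41, and CD79A 42.6 CPM and 1623 CPM. PAX5, which defines B cells, averaged 0.103 CPM in HPB-ALL and 0.00504 CPM in DND-41. MS4A1 was at 0.00456 CPM in HPB-ALL and at 0 in DND-41. QKI averaged 137 CPM in HPB-ALL, 162 CPM in TALL-1, 130 CPM in ALL-SIL, 88.0 CPM in DND-41 and 6.71 CPM in KARPAS-45, and LOUCY had 0 counts. Over the 6 line means, Spearman's rho with QKI was 0.71 for CD1A, 0.60 for CD1B and CD1D, 0.37 for CD1E and 0.31 for CD1C, as a description. Of 21 listed transcription factors 20 could be tested, and 19 differed between lines, against 98% of all genes tested. TCF7, which drives early T-cell development, was at 1943.5 CPM in HPB-ALL, 1364 CPM in TALL-1, 1308 CPM in KARPAS-45, 720 CPM in ALL-SIL, 54.0 CPM in DND-41 and 0.169 CPM in LOUCY, which is the order of CD1A but for DND-41 and ALL-SIL. TLX3, at 225 CPM in HPB-ALL, 122 CPM in DND-41 and at or near 0 elsewhere, was high in the lines with high CD1B. NOTCH3, a receptor of the Notch pathway, was highest in KARPAS-45 with 1070 CPM and lowest in LOUCY with 0.158 CPM, TLX1 was at 392 CPM in ALL-SIL and at most 0.331 CPM in any other line, and SPI1 was at 54.0 CPM in LOUCY and at most 0.0481 CPM in any other. MYB, chosen for the promoter letters above, was at 336 to 567 CPM in all 6. The immature precursor genes went in both directions. HHEX, LYL1 and MEF2C were at 175, 279 and 139 CPM in LOUCY, against 1.56, 12.9 and 0.00446 CPM in HPB-ALL, whereas MEIS1 was at 0.00453 CPM in LOUCY, 0.363 CPM in HPB-ALL and 137 CPM in KARPAS-45. BAALC, picked after its values were seen, was at 0.139 CPM in LOUCY and 39.2 CPM in HPB-ALL.

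Genes with a pattern most like each member were found by Pearson's r of log2(CPM + 0.5) over the 24 line libraries. The 11004 candidates had a mean of at least 10 CPM in some line and passed the filter on low counts. Genes with only a clone-based, LOC, LINC or identifier name were not among them. CD1A and CD1D were each other's nearest gene (r = 0.98), followed for both by CCDC74A (0.95 for each) and NUP50-DT (0.92 and 0.95). For CD1A the list ended with FNBP1P1 (0.91) and for CD1D with PUDP (0.95). CD1B was nearest to SNORD3B-1 (0.95), TPTEP1 (0.94), GLI3 (0.94) and GLP1R (0.93), and GLI3, a factor of the Hedgehog pathway, was at 37.1 CPM in HPB-ALL and 41.8 CPM in DND-41 against 5.64 to 16.3 CPM elsewhere. CD1C was nearest to PKP1 (0.96), BMP4 (0.96), CPLX1 (0.96) and SLC4A3 (0.95), all of which were highest in HPB-ALL. CD1E was nearest to TRGV3 (0.94), MIR924HG (0.93), CR2 (0.92) and ANGPT2 (0.92); CR2, a complement receptor of B cells, was at 277 CPM in HPB-ALL and 17.2 CPM in DND-41. The libraries of a line are not independent, so these values carry no p.

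Around the cluster, expression was uneven. KIRREL1, an adhesion protein gene 79.7 kb before CD1D, averaged 67.7 ± 16.6 CPM in HPB-ALL, 27.99 ± 3.15 CPM in TALL-1, 24.3 ± 1.17 CPM in DND-41, 8.06 ± 0.425 CPM in KARPAS-45 and 7.97 ± 3.01 CPM in LOUCY, with 1 ALL-SIL library above 0. The long non-coding RNA AL138899.1, at chr1:158197922-158203877 between CD1D and CD1A, was highest in DND-41 with 63.3 ± 3.44 CPM, followed by TALL-1 with 23.3 ± 10.3 CPM and HPB-ALL with 9.45 ± 3.69 CPM (SD, n = 4 each). The pseudogene AL138899.2 beside it showed the same order, at 54.2, 19.5 and 8.09 CPM. Its order over the lines was thus not that of any CD1 gene. The olfactory receptor genes on the far side stayed below 1 CPM in every group, as did CD5L, FCRL1, FCRL2 and the pseudogene HMGN1P5.

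In Jurkat, QKI siRNA was followed by no called change in any of the 5 CD1 genes. By edgeR without a block, 0 of 5 were called and 1 of 21296 genes in all (0.0047%), which was QKI itself, with 186 genes and no CD1 gene at an unadjusted p under 0.05; DESeq2 also called 0 of 5. The adjusted p was 1 for each member. CD1A averaged 73.2 ± 39.6 CPM in QKI siRNA and 69.3 ± 36.6 CPM in NTC siRNA, CD1B 79.8 ± 12.1 CPM and 78.6 ± 11.9 CPM, and CD1D 121 ± 28.8 CPM and 119 ± 27.97 CPM (SD, n = 4 each). QKI fell by 2.79 ± 0.17 in the same libraries (log2, SE; adjusted p = 0.000129).

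Same-numbered libraries of the Jurkat arms deviated together, so the replicate number was also fitted as a block. With it, 9 of 21296 genes were called (0.0423%), again no CD1 gene, and the intervals narrowed. The log2 difference of QKI siRNA over NTC siRNA was then 0.08 for CD1A (95% confidence interval -0.08 to 0.23, adjusted p = 0.857). It was 0.02 for CD1B (-0.14 to 0.19, adjusted p = 0.963), 0.05 for CD1C (-0.13 to 0.23, adjusted p = 0.927), 0.01 for CD1D (-0.14 to 0.17, adjusted p = 0.974) and -0.001 for CD1E (-0.17 to 0.17, adjusted p = 0.998). No interval reached below -0.17 or above 0.23; without the block the widest, that of CD1A, ran from -0.92 to 1.07.

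Within Jurkat, CD1 levels differed more between replicate numbers than between the arms. CD1A was at 41.8, 36.3, 104 and 111 CPM in QKI siRNA replicates 1 to 4, against 45.7, 30.5, 100.01 and 101 CPM in NTC siRNA replicates 1 to 4. CD1C was at 16.1, 13.6, 33.3 and 31.5 CPM in QKI siRNA, against 18.5, 11.1, 31.6 and 30.7 CPM in NTC siRNA. For both genes replicates 3 and 4 stood above replicates 1 and 2 in each arm, and the ranges of the arms overlapped. CD1D was at 84.5, 110.3, 141 and 146 CPM in QKI siRNA, against 95.1, 94.8, 139 and 147 CPM in NTC siRNA. CD1E was at 26.7, 30.7, 41.6 and 41.3 CPM in QKI siRNA, against 31.2, 26.5, 39.5 and 43.3 CPM in NTC siRNA, and so followed the same split. CD1B, at 69.9, 74.5, 77.4 and 97.4 CPM in QKI siRNA and 77.9, 62.2, 84.7 and 89.5 CPM in NTC siRNA, varied least between numbers. Over the 8 Jurkat libraries the members correlated with r of 0.80 to 0.99 on the log2 scale, again a description of libraries that share their numbers. Scaling factors of the libraries moved with the number too, at 1.06, 0.994, 0.935 and 0.961 in QKI siRNA and 1.06, 1.07, 0.946 and 0.983 in NTC siRNA. Histone transcripts, high in replicate 2 at 56474 CPM in QKI siRNA and 39126 CPM in NTC siRNA, did not follow the split. What the numbers share is not in the labels, and the part of these differences in the CD1 levels was not tested.

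**Figure D5:**
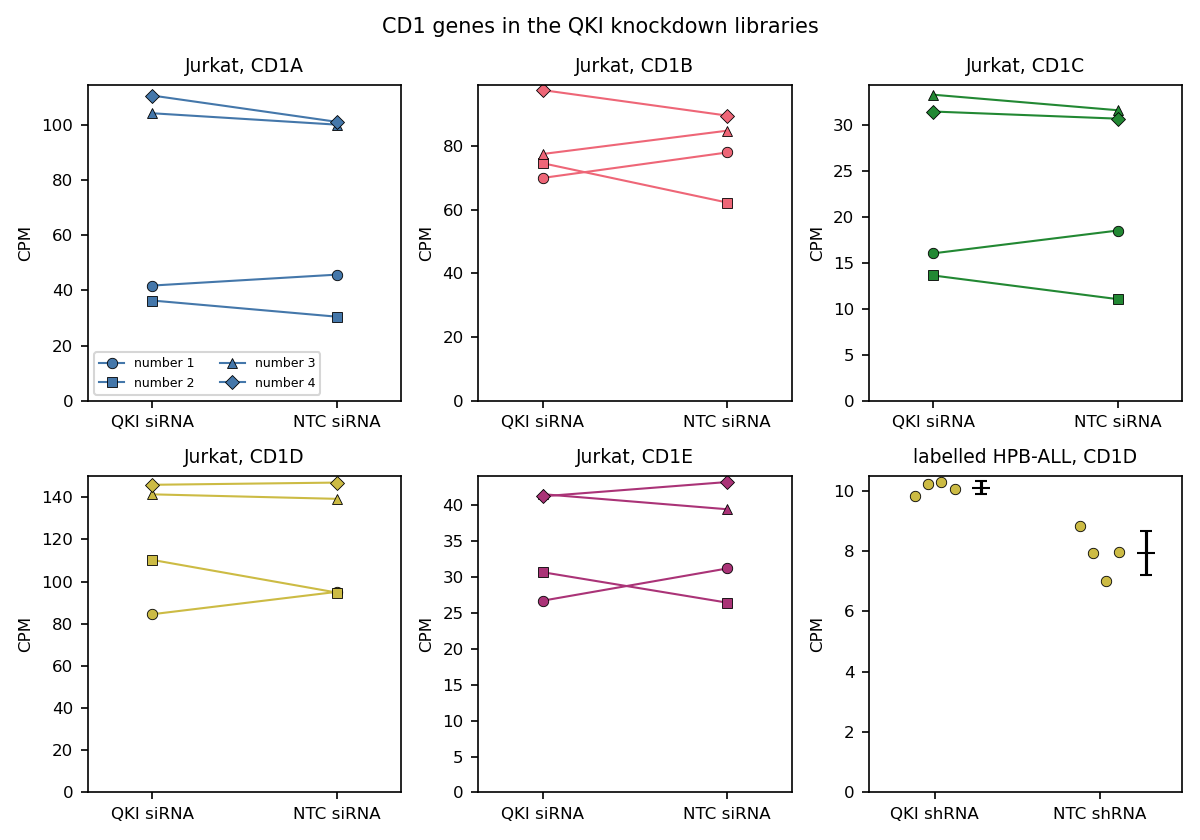
CPM of the 5 CD1 genes in Jurkat with QKI siRNA (left) and NTC siRNA (right), lines joining libraries of the same replicate number, and of CD1D in the libraries labelled HPB-ALL with QKI shRNA (left) and NTC shRNA (right), with mean and SD beside the points (n = 4 each). The Jurkat lines are near level while numbers 3 and 4 sit above 1 and 2 for CD1A, CD1C, CD1D and CD1E, and the 4 QKI shRNA libraries lie above all 4 NTC shRNA libraries.

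In the libraries labelled HPB-ALL, CD1D was the member expressed, and it rose with QKI shRNA. CD1A, CD1B and CD1E had at most 3 counts in any of the 8 libraries and CD1C at most 10, so 4 of the 5 did not pass the filter on low counts and a change in them was not detectable at this depth; fitted without the filter, none of the 4 was called (adjusted p of 0.48 to 0.833). CD1D was at 9.81, 10.2, 10.3 and 10.1 CPM with QKI shRNA, against 8.82, 7.93, 7.03 and 7.98 CPM with NTC shRNA. All 4 knockdown libraries lay above every NTC library, and the knockdown libraries were the tighter group. Relative to NTC shRNA the difference was 0.35 ± 0.06 on the log2 scale (95% confidence interval 0.21 to 0.49, edgeR adjusted p = 0.00259). Of 17974 genes tested, 23.2% were called and 12.8% were higher, so a call for 1 gene is no rare event in this table. As for the lines, p-values in both knockdown experiments measure the spread between the deposited libraries, which may be technical. Nothing says that the 4 libraries of an arm came from separate transfections, transductions or cultures. QKI fell by 0.90 ± 0.03 (adjusted p = 1.1e-07).

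The CD1D response of the knockdowns was compared directly. In 1 model over the 16 knockdown libraries, the CD1D effect in Jurkat minus that in the libraries labelled HPB-ALL was -0.31 ± 0.22 on the log2 scale (95% confidence interval -0.78 to 0.16, adjusted p = 0.94). The difference was thus not called, and 4 of 15730 genes were (0.0254%). The interval includes both no difference and one as large as the whole rise. Agents, cells, serum, the kind of RNA (total or polyadenylated) and depth of knockdown differed between the experiments. This fit had no replicate block, and the SE of the CD1D effect in Jurkat was 0.21 without the block and 0.07 with it. Under 5 other settings, the block, DESeq2 and limma-voom among them, the difference was -0.36 to -0.32. It was called in none of them (adjusted p of 0.104 to 0.972).

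The partners of the CD1 proteins were followed by list. No member of any list was called in Jurkat, with or without the block, among 19 tested genes of lipid loading and trafficking, 15 cortical genes, 18 transcription factors, 6 immature precursor genes, 4 dendritic and myeloid markers, 2 B-cell markers and 1 gene of invariant NKT cells; B2M, whose product pairs with every CD1 protein, averaged 671 ± 102 CPM in QKI siRNA and 643 ± 76.6 CPM in NTC siRNA (SD, n = 4 each; log2 difference with the block 0.06, adjusted p = 0.898). Among the libraries labelled HPB-ALL, 4 of 19 genes of lipid loading and trafficking fell and 1 rose, against 10.4% lower and 12.8% higher among all genes, with a median log2 difference of -0.10 beside -0.01 over all genes. CD74, the invariant chain that CD1D associates with on its way to endosomes, averaged 156 CPM with QKI shRNA against 245 CPM with NTC shRNA (-0.65 ± 0.04, adjusted p = 1.49e-06). LIPA, the lysosomal acid lipase, fell by 0.18 ± 0.05 (adjusted p = 0.0297). AP3D1, a subunit of the adaptor that sorts CD1B to lysosomes, rose by 0.15 ± 0.04 (adjusted p = 0.024). B2M averaged 1193 ± 22.9 CPM with QKI shRNA and 1301 ± 37.8 CPM with NTC shRNA, all 4 knockdown libraries being below every NTC library (-0.13 ± 0.04, adjusted p = 0.0434). The calls of LIPA, AP3D1 and B2M are fragile: leaving out 1 library at a time ended them in 5, 4 and 7 of 8 fits, with adjusted p up to 0.0753, 0.0656 and 0.134.

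Of the transcription factors, 7 of 17 rose in the libraries labelled HPB-ALL and none fell, against 12.8% higher and 10.4% lower among all genes, with a median of 0.12 beside -0.01 over all genes. RUNX1 averaged 247 CPM with QKI shRNA against 196 CPM with NTC shRNA (0.33 ± 0.04, adjusted p = 9.93e-05). RUNX3 rose by 0.32 ± 0.06 (adjusted p = 0.00226), TCF12 by 0.20 ± 0.04 (adjusted p = 0.00681) and RARA, the retinoic acid receptor, by 0.16 ± 0.04 (adjusted p = 0.0193). The other 3 that rose were NOTCH1 (adjusted p = 0.0328), GATA3 (0.0363) and ELF1 (0.047). Leaving out 1 library at a time ended the calls of RARA, NOTCH1, GATA3 and ELF1 in 2, 6, 6 and 5 of 8 fits (adjusted p up to 0.0635, 0.0885, 0.106 and 0.111). With the replicate number as a block, NOTCH1, GATA3 and ELF1 were not called (adjusted p = 0.0605, 0.0762 and 0.0803), which leaves 4 of 17. With that block 9.51% of all genes were higher and 7.53% lower. Of the 16 cortical genes 5 passed the filter in these libraries. Without the block 2 fell and 1 rose, beside the same 10.4% lower and 12.8% higher over all genes (median -0.19 beside -0.01). CD38 fell by 0.33 ± 0.04 (adjusted p = 0.000106) and CD4 fell by 0.19 ± 0.04 (adjusted p = 0.00588). RAG2, DNTT, CD8A and CD5 averaged at most 0.102 CPM in either arm.

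Markers of cells that carry CD1 outside the thymus moved in the same libraries. The 12 dendritic and myeloid markers summed to 794 to 871 CPM with QKI shRNA against 1137 to 1242 CPM with NTC shRNA, and 4 of 7 tested fell and none rose, against 10.4% lower and 12.8% higher among all genes (median log2 difference -0.54 beside -0.01). LYZ, lysozyme, averaged 462 CPM with QKI shRNA against 758 CPM with NTC shRNA (-0.71 ± 0.05, adjusted p = 7.94e-06). ITGAX, the integrin CD11c, averaged 23.7 CPM against 36.6 CPM (-0.63 ± 0.04, adjusted p = 4.66e-06), CSF1R fell by 0.23 ± 0.06 (adjusted p = 0.0127) and CST3 by 0.17 ± 0.04 (adjusted p = 0.00803). The defining dendritic markers CD207, CLEC9A, FCER1A and CLEC10A averaged at most 0.0824 CPM in either arm. Of 9 immature precursor genes tested, 3 rose and 2 fell, against 12.8% higher and 10.4% lower among all genes (median -0.02 beside -0.01). LYL1 rose by 0.23 ± 0.04 (adjusted p = 0.00193) and MEIS1 by 0.17 ± 0.04 (adjusted p = 0.00688). MEF2C rose by 0.16 ± 0.05 (adjusted p = 0.0348), a call lost in 6 of 8 fits that left out 1 library (adjusted p up to 0.0901) and with the block (adjusted p = 0.0512), while ANPEP fell by 0.42 ± 0.04 (adjusted p = 3.12e-05) and KIT by 0.35 ± 0.08 (adjusted p = 0.00941). Of 4 B-cell markers tested 2 fell and none rose, beside the same shares of all genes (median -0.24 beside -0.01): CD22 fell by 0.53 ± 0.07 (adjusted p = 0.000189) and CD79A by 0.33 ± 0.09 (adjusted p = 0.0256; up to 0.0636 without 1 library). CD1D thus rose while these myeloid and B-cell markers fell, and their part in the CD1D result was not tested. Of the genes of invariant NKT cells, which recognise CD1D, TRAV10, TRAJ18 and TRBV25-1 were at 0 in all 8 libraries, and ZBTB16 was not called in either experiment.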

How the data were processed

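Read counts per gene were deposited by the authors in 3 tables, for Jurkat, for the libraries labelled HPB-ALL and for the 6 untreated lines. Trimmomatic 0.39, STAR 2.7.11b and GRCh38 are named in the submitters' processing notes; how reads were counted is not stated there or in the labels. Control columns of the Jurkat table carry shNTC in their names, whereas the labels give an NTC siRNA; the labels were followed. In the table labelled HPB-ALL, 13.0% to 15.1% of reads named no gene and were left out. Depth per library is given in the report; counting intervals and floors cover counting error only.

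CPM values were computed within each table from the deposited counts with TMM factors. Tests were edgeR 4.0.16 quasi-likelihood fits (R 4.3.3) after filterByExpr, with Benjamini-Hochberg adjusted p over all genes tested and a threshold of 0.05. DESeq2 1.42.0, limma-voom (limma 3.58.1), RLE size factors, no filter, a replicate block and leaving out each library were the alternatives. Libraries sharing a number correlated in their deviations with r of 0.68 to 0.83 in Jurkat, where the numbers therefore pair the libraries as a feature of the data, since the labels do not say what a number shares. LOUCY columns that bear the same number as each other were kept as libraries without a number. They entered no comparison by number and no fit with the block. No 2 libraries of a group agreed within sampling noise, with a chi-square over its degrees of freedom of 12.7 to 348.

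The 5 genes and all lists were chosen with earlier results of these data known. Some listed genes are counted in their lists but not reported here by name. Named genes are the members, QKI, B2M, label markers, cluster neighbours, the 4 candidate genes most correlated with each member, and up to 4 called genes a list with the smallest p in each knockdown or in the F test over lines. On simulated counts, 2-fold changes were recovered for 67.2% of changed genes in Jurkat (20648 genes), 100% in the libraries labelled HPB-ALL (17759 genes) and 89.6% in HPB-ALL against DND-41 (19202 genes). Changes of 1.5-fold were recovered for 10.4%, 98.5% and 37.3%. Weakly expressed genes were not among those changed, noise was independent between libraries, and the fits had no replicate block. The rates therefore do not describe weakly expressed genes or the Jurkat fit with the block.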

Additional observations from a re-analysis of the deposited data

Results flagged for a closer look

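In 5 of 41 sets of 4 libraries, 1 library stood apart from the other 3 by more than the 95% limit of Dixon's test, which chance gives in about 1 of 20 sets. CD1A was at 191 CPM in HPB-ALL replicate 4, against 398 to 406 CPM in the other 3, and at 26.5 CPM in TALL-1 replicate 4, against 98.7 to 109 CPM. CD1E was at 5.79 CPM in ALL-SIL replicate 3, against 0.815 to 1.37 CPM. In the libraries labelled HPB-ALL, CD1C was at 0.0251 CPM in QKI shRNA replicate 1, against 0.0582 to 0.0604 CPM in the other 3, and at 0.0803 CPM in NTC shRNA replicate 2, against 0.0252 to 0.0323 CPM; these rest on at most 10 counts a library.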

How the results depend on the processing

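The count of CD1 genes called kept its value under all 13 alternatives in Jurkat (0) and in the libraries labelled HPB-ALL (1), under all 21 for the difference between knockdowns (0) and under all 30 for the F test over lines (5); 65 to 67 of 75 comparisons between lines were called. Leaving out single libraries, CD1D in the libraries labelled HPB-ALL differed by 0.29 to 0.40 (log2). With a replicate block the count of all genes called was 9 in Jurkat against 1, 3063 in the libraries labelled HPB-ALL against 4175, and 481 against 4 for the difference between knockdowns, for which DESeq2 called 101. Replicate numbers do not pair the libraries labelled HPB-ALL (r of -0.23 to 0.04). With the block CD1D stayed called (adjusted p = 0.0117). In that fit 2 of 19 lipid loading genes, 4 of 17 transcription factors and 1 of 4 B-cell markers were called, against 17% of all genes. B2M was not called with the block (adjusted p = 0.121), nor was it with no filter on low counts (0.123). Over all line pairs r was -0.19 to 0.51, so the numbers as a whole do not meet the bar for pairing, although those numbered 4 deviate together in 5 of 6 lines (0.20 to 0.51). The block left 66 of 75 line comparisons called, in a fit that left out the LOUCY libraries without a number. With limma-voom, TALL-1 exceeded ALL-SIL in CD1E (adjusted p = 0.0261). The cause of these shifts was not tested. Depth limits CD1A, CD1B, CD1C and CD1E in the libraries labelled HPB-ALL and CD1B, CD1D and CD1E in LOUCY.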
